A study of Mus musculus with 6 samples.

Results

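The uncoupling proteins of the mouse, encoded by Ucp1, Ucp2 and Ucp3, were followed in brown fat taken from between the shoulder blades (interscapular brown adipose tissue), a depot that burns fuel to produce heat. The members were taken by gene symbol: 3 genes of the 29072 genes in the deposited table, which together hold 17 transcript rows (3 for Ucp1, 10 for Ucp2 and 4 for Ucp3). For each gene the RefSeq messenger RNA row with the highest mean served as its main row. All 6 libraries came from C57BL/6J mice: 3 from UCP1(-/-) animals, called knockout here, and 3 from wildtype animals. Total RNA of the whole depot was sequenced. No age, sex, housing temperature, diet, treatment or time of day was given for either group in the sources used here, nor which part of the gene the knockout allele lacks. The labels do not say that the 3 libraries of a group came from separate mice, so each p-value below is measured against the spread between these samples only, and that spread may be technical.

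Uncoupling proteins are carriers of the mitochondrial inner membrane. UCP1 is the defining protein of brown adipocytes: when fatty acids activate it, protons return to the matrix without passing ATP synthase and the energy of respiration leaves as heat. UCP3 is found mainly in skeletal muscle and brown fat and its gene responds to fatty acid supply, whereas UCP2 is made in many tissues, immune cells among them. UCP2 and UCP3 do not replace the heat production of UCP1, and their own transport functions are still debated.

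The genes lie at 2 loci in GENCODE M21 on GRCm38. The build used by the authors is not given in the sources used here, so these positions locate the genes and not the reads. Ucp1 (main row NM_009463, 1644 bases) is at chr8:83290352-83298452 with 6 exons. Ucp3 (NM_009464, 2448 bases) is at chr7:100472990-100486432, and the transcript matched to it has 7 exons. Ucp2 (NM_011671, 4133 bases) follows on the same plus strand at chr7:100493337-100502020. Its matched transcript has 8 exons. Between Ucp3 and Ucp2 lie 6904 bases with no gene in the RefSeq gene table. Over aligned coding bases, Ucp2 and Ucp3 were 75.4% identical, Ucp1 and Ucp3 64.9% and Ucp1 and Ucp2 63.1%. The longest exact run shared in the coding regions was 24 bases for Ucp2 and Ucp3 and 17 bases for each pair with Ucp1.

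Because Ucp1 and Ucp3 were lower and Ucp2 was higher in the knockout libraries, the bases before each start are shown from the RefSeq promoter table (GRCm38.p6, plus strand), ending before the first annotated transcript base. Capitals mark each match to 4 motifs on either strand: the nuclear receptor half-site AGGTCA, the cAMP response element half-site TGACG, the GC box GGGCGG and the TATA motif TATATA. No 2 matches overlap here.
Ucp1, chr8:83290098-83290347: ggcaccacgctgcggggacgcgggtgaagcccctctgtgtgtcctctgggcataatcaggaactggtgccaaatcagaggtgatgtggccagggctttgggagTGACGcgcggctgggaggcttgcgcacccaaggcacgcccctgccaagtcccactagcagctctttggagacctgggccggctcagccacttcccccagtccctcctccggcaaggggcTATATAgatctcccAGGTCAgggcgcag
Ucp3, chr7:100472741-100472989: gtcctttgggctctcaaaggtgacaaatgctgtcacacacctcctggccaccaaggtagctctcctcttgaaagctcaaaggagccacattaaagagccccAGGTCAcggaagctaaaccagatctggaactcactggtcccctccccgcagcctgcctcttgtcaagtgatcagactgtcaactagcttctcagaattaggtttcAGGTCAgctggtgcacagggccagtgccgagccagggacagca
Ucp2, chr7:100493108-100493336: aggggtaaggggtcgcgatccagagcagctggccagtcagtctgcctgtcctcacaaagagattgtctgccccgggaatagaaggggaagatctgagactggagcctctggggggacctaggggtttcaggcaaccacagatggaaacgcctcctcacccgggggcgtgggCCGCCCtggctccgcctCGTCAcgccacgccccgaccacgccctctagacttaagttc
The Ucp1 window held the cAMP response element half-site, the TATA motif and the nuclear receptor half-site, with first bases 147, 28 and 14 bases before the RefSeq start. Of 32851 promoter windows of 250 bases, 14.0% held the nuclear receptor half-site, 17.8% the cAMP response element half-site and 5.25% the TATA motif. The Ucp3 window held the nuclear receptor half-site at 149 and at 44 bases before its start and none of the other motifs. In the Ucp2 window, the GC box, present in 32.7% of windows, lay 79 bases and the cAMP response element half-site 62 bases before the RefSeq start, both as the reverse complement. For Ucp2, 21 bases lie between the end of the printed sequence and that start, and for Ucp3 1 base does. The window of 250 bases had a GC content of 64.8% for Ucp1, 63.6% for Ucp2 and 54.8% for Ucp3, against a median of 52.4% over all promoters. That window held 16 CG dinucleotides for Ucp2, 12 for Ucp1 and 3 for Ucp3, and the Ucp2 sequence above is shorter than it because an annotated transcript starts within it. The well-studied enhancer of Ucp1 lies farther upstream and is not in this window. These matches describe letters and not binding.

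Values are RPKM, reads scaled to transcript length and library size, and the spacing of low values implied 15800000 to 18000000 reads per library. Across 11541 genes tested with limma on log2(RPKM + 1), 894 (7.75%) passed an adjusted p of 0.05, namely 808 (7% of tested genes) higher and 86 (0.745%) lower in the knockout libraries. The count was 477 without knockout replicate 1 and 457 without knockout replicate 2. After median-of-ratios scaling 644 genes passed, and the share of calls that were higher was 77.2% in place of 90.4%. The summed level of 14 brown adipocyte markers was 13772 to 14445 RPKM in wildtype and 14263 to 15196 RPKM in knockout libraries. Both groups thus carried these markers. Of the sum, Fabp4 alone held 7741 to 9071 RPKM in wildtype and 8418 to 9270 RPKM in knockout libraries. Of the 14 markers 13 did not pass and 1 was called, beside 7.75% of all tested genes. In whole tissue, fewer cells of a type and less RNA per cell cannot be told apart.

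Ucp1, the targeted gene, was much lower in the knockout libraries but its transcript was not absent from them. Wildtype replicates 1, 2 and 3 held 3096, 1714 and 3151 RPKM, and knockout replicates 1, 2 and 3 held 375, 389 and 372 RPKM. Wildtype replicate 2 stood well below the other wildtype libraries, while the knockout libraries lay close together and all below the wildtype range. The coefficient of variation was 30.7% over wildtype and 2.33% over knockout libraries. The knockout mean was 379 ± 8.83 RPKM (SD, n = 3) and the wildtype mean 2653 ± 814 RPKM (SD, n = 3), so 14.3% of the wildtype level remained. Even the lowest wildtype library was 4.41-fold above the highest knockout library. The log2 change of -2.75 (SE 0.21, 95% CI -3.24 to -2.27, limma adjusted p = 0.000408) was the lowest of all 11541 tested genes on the log2(RPKM + 1) scale. By the ratio of means without a pseudocount, Rnf150 was slightly lower, at 14.2% of its wildtype mean of 3.57 RPKM. A single exact permutation test over the 6 libraries cannot go below p = 0.1, the value it gave for each of the 3 genes.

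The remaining Ucp1 transcript, whose capacity to encode UCP1 was not tested, was still abundant by the standard of the tissue. It ranked 99 to 102 among the 11541 tested genes in the knockout libraries, against 7, 13 and 8 in wildtype replicates 1, 2 and 3. Recovered from the spacing of the RPKM values, the main row rested on 9888, 10080 and 11018 reads in knockout replicates 1, 2 and 3. The wildtype libraries held 83154, 45746 and 84207 reads. Counting error was therefore at most 1.01% of any Ucp1 value, far below the spread between the wildtype libraries.

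The 3 Ucp1 rows did not fall by exactly the same factor. The full-length rows of 1644 and 1636 bases counted nearly the same reads in every library. A shorter cDNA row of 1235 bases (AK002759) held 94.2% to 94.7% of the main row's reads in wildtype and 96.3% to 96.9% in knockout libraries, and the groups did not overlap. The main row thus had 4477, 2441 and 4910 reads more than the shorter row in wildtype replicates 1, 2 and 3. In knockout replicates 1, 2 and 3 the excess was 335, 313 and 410 reads, with a counting error of 4.94% to 5.65%. Scaled to library depth, this excess in the knockout group was on average 8.74% of that in wildtype, whereas the reads of the shorter row stood at 14.6% of wildtype. Whether the shorter row lies wholly within the main row was not checked. If it does, the Ucp1 reads were spread differently between the remaining 409 bases and the rest in the 2 groups. Where the 409 bases lie in the gene is not stated in the table, and the difference has no test beyond the separation of the libraries.

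**Figure D1:**
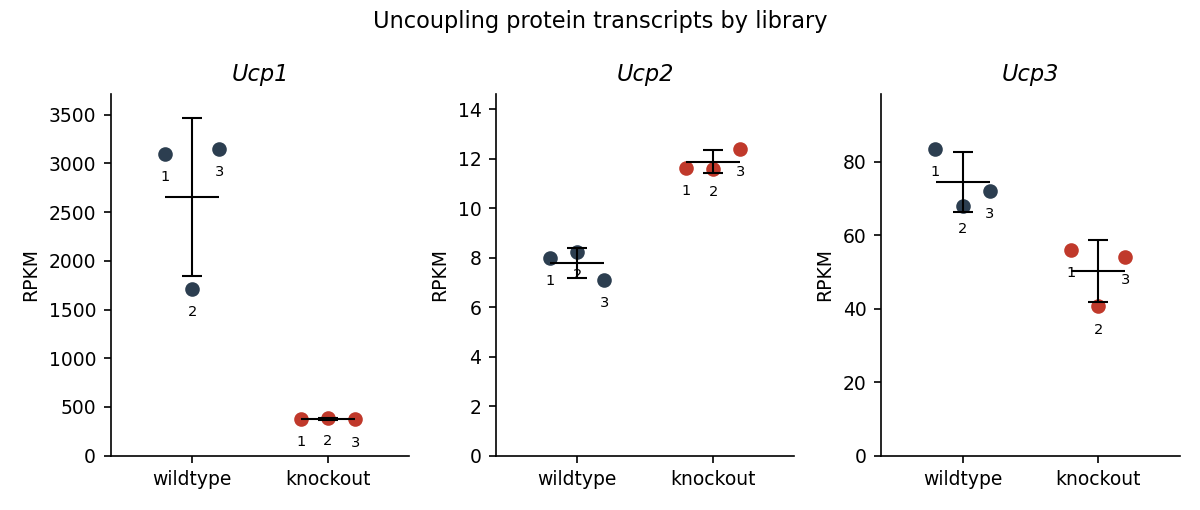
RPKM of the main row of Ucp1, Ucp2 and Ucp3 in each library, with a point per library numbered by replicate, a horizontal line at the mean and bars of 1 SD (n = 3). The groups did not overlap for any of the 3 genes: Ucp1 and Ucp3 were lower and Ucp2 was higher in the knockout libraries, and wildtype replicate 2 had 1714 RPKM of Ucp1 against 3096 and 3151 RPKM in the others.

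Ucp3, the relative shared by brown fat and muscle, was also lower in the knockout libraries. Its main row held 83.5, 67.9 and 72.1 RPKM in wildtype replicates 1, 2 and 3, and 56.0, 40.6 and 54.0 RPKM in knockout replicates 1, 2 and 3. The groups did not overlap, with the lowest wildtype library 1.21-fold above the highest knockout library, and knockout replicate 2 was the lowest of all. The means were 74.5 ± 8.09 RPKM in wildtype and 50.2 ± 8.38 RPKM in knockout (SD, n = 3 each), so the knockout level was 67.4% of wildtype. The log2 change was -0.57 (SE 0.13, 95% CI -0.87 to -0.27, limma adjusted p = 0.0366), and 0.546% of tested genes had a lower one. Between 1569 and 3341 reads per library lay behind these values, a counting error of 1.73% to 2.53%.

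The call on Ucp3 was close to the threshold. It was lost without a filter on low values (limma adjusted p = 0.0776) and without knockout replicate 1 (0.0547), knockout replicate 2 (0.0880), knockout replicate 3 (0.0629), wildtype replicate 1 (0.114) or wildtype replicate 3 (0.0628). Over all its alternatives the adjusted p ranged from 0.0141 to 0.114. The log2 change of Ucp3 was negative in each of them, between -0.66 and -0.43. Because the groups did not overlap, leaving out a library could not change this sign.

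Ucp2, the widely expressed relative, was higher in the knockout libraries. Wildtype replicates 1, 2 and 3 held 7.997, 8.23 and 7.10 RPKM, and knockout replicates 1, 2 and 3 held 11.6, 11.6 and 12.4 RPKM. Every knockout library was above every wildtype library, by 1.41-fold between the nearest ones. The mean rose from 7.77 ± 0.596 to 11.9 ± 0.460 RPKM (SD, n = 3 each), which is 1.53-fold. The log2 change was 0.55 (SE 0.079, 95% CI 0.37 to 0.73, limma adjusted p = 0.00389), and 4.59% of tested genes had a higher one. With 477 to 924 reads per library, counting error was 3.29% to 4.58%, beside a coefficient of variation of 3.88% over knockout and 7.67% over wildtype libraries.

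All 3 genes thus separated the groups, as did 29.4% of all tested genes (24.3% higher and 5.14% lower in the knockout libraries). Of the members, 2 were called lower, beside 0.745% of tested genes, and 1 was called higher, beside 7%. All tested genes together had a median log2 change of 0.08, on the side of the Ucp2 rise and away from the Ucp3 fall. After median-of-ratios scaling the log2 changes were -2.85 for Ucp1, 0.47 for Ucp2 and -0.66 for Ucp3, each past the threshold.

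**Figure D2:**
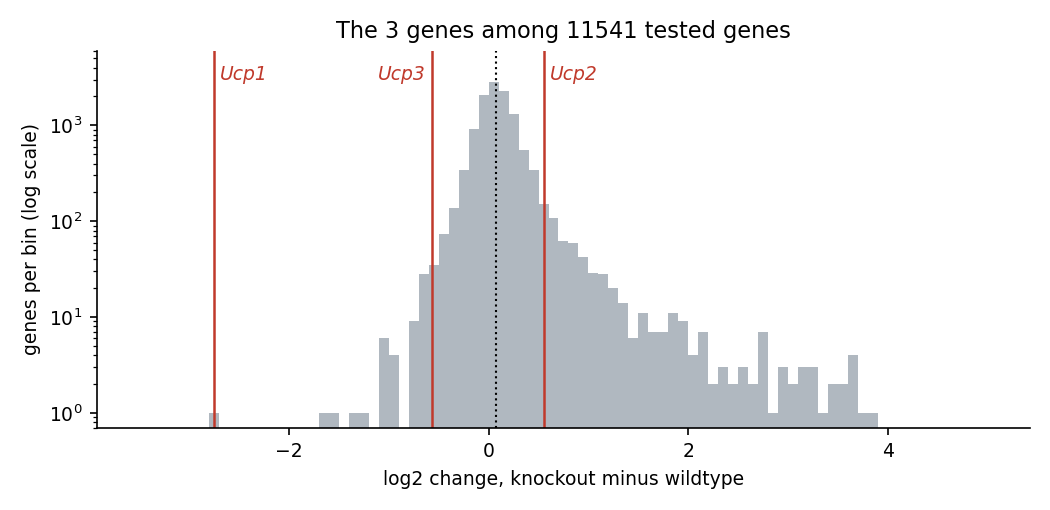
Number of tested genes (log scale) by log2 change, knockout minus wildtype, in bins of 0.1, for all 11541 tested genes. Red lines mark Ucp1 at -2.75, Ucp3 at -0.57 and Ucp2 at 0.55, and the dotted line marks the median of all tested genes at 0.08. Ucp1 stands at the lower end of the distribution, and Ucp2 and Ucp3 lie on its shoulders.

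Every transcript row of a member moved in the direction of its main row, with no overlap between the groups. Rows of a gene share reads and are not independent of each other. The 10 Ucp2 rows stood at 151% to 165% of their wildtype means, the 4 Ucp3 rows at 66.4% to 68.2% and the 3 Ucp1 rows at 14.3% to 14.6%. The level of Ucp2 per length was less settled than its change. The cDNA row AK134116, with 1572 bases, held 95.9% to 98.0% of the main row's reads and stood at a mean of 19.996 RPKM in wildtype and 30.1 RPKM in knockout. The main row, with nearly the same reads over 4133 bases, stood at 7.77 RPKM in wildtype, so a level of Ucp2 set beside another gene depends on the row, while its ratio between the groups hardly does.

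**Figure D3:**
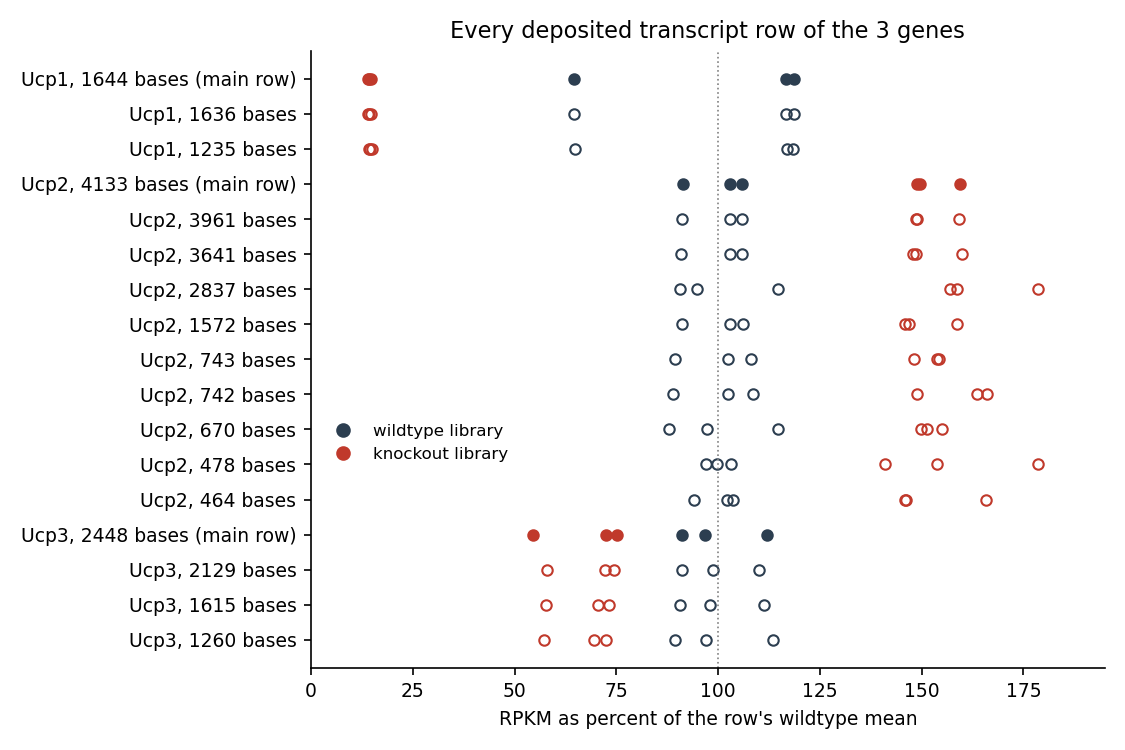
RPKM of every deposited transcript row of Ucp1, Ucp2 and Ucp3, as percent of the row's wildtype mean, with a point per library, filled for the main row of each gene. Rows are named by their length in bases. Knockout libraries lay near 14% of wildtype in all 3 Ucp1 rows, above every wildtype library in all 10 Ucp2 rows and below every wildtype library in all 4 Ucp3 rows.

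Ucp2 overlaps the end of Dnajb13, a gene on the opposite strand (chr7:100501716-100514960), by 305 bases, and the use of strand in counting is not given in the sources used here. Dnajb13, a J-domain protein of cilia and flagella, held 0.161, 0.216 and 0.215 RPKM in wildtype and 1.47, 1.11 and 0.922 RPKM in knockout replicates 1, 2 and 3. It rose by a log2 change of 0.85 (limma adjusted p = 0.00329) at a very low level. The 5 Ensembl rows of Ucp2 end at 100498740 or before, at least 2975 bases from Dnajb13, and each was higher in every knockout library than in every wildtype library. The main row of Ucp2 had 12, 11 and 11 reads more than AK134116 in wildtype and 30, 31 and 24 more in knockout replicates 1, 2 and 3. Where AK134116 ends on the genome is not stated in the table, and the part of Dnajb13 reads in the rise of the main row was not tested. Apart from Dnajb13, the nearest tested genes beyond the pair did not pass. On the Ucp3 side these were Ppme1, a phosphatase methylesterase, and C2cd3, a centriole protein (limma adjusted p = 0.417 and 0.685). Beyond Dnajb13 it was Coa4, an assembly factor of cytochrome oxidase (limma adjusted p = 0.395).

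The order of levels by main row was the same in all 6 libraries, with Ucp1 highest, then Ucp3 and then Ucp2. In wildtype replicates 1, 2 and 3, Ucp1 was 37.1, 25.2 and 43.7 times Ucp3. In knockout replicates 1, 2 and 3 it was still 6.70, 9.57 and 6.88 times Ucp3. Ucp3 in turn was 10.4, 8.26 and 10.2 times Ucp2 in wildtype and 4.82, 3.51 and 4.36 times Ucp2 in knockout replicates 1, 2 and 3. The gaps between neighbours in this order were larger than the spread within either group. Because the level of Ucp2 depends on the row, the lower part of the order does too: in knockout replicate 2 the lowest Ucp3 row stood at 27.1 RPKM and the highest Ucp2 row at 29.2 RPKM.

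Ratios within a library do not depend on its scaling, and each shifted without overlap between the groups. For Ucp2 to Ucp1 and for Ucp3 to Ucp2 this separation follows from the single genes, which moved in opposite directions without overlap. The shift of Ucp3 to Ucp1 reflects the larger fall of Ucp1. The ratios are thus no further evidence beside the values of each gene. On the log2 scale, Ucp2 to Ucp1 was -8.36 ± 0.58 in wildtype and -4.996 ± 0.083 in knockout (SD, n = 3 each), a difference of 3.37. The ratio of Ucp3 to Ucp1 went from -5.11 ± 0.41 to -2.93 ± 0.29, a difference of 2.18. Between the neighbours on chromosome 7, Ucp3 to Ucp2 went from 3.26 ± 0.19 to 2.07 ± 0.23, a difference of -1.19. The exact two-sided permutation test gave p = 0.1 for each ratio, the smallest that 3 libraries against 3 allow.

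Summed over the 3 main rows, the family came to 3188, 1790.02 and 3229.7 RPKM in the wildtype libraries, in order of replicate. In knockout replicates 1, 2 and 3 the sum was 443, 441 and 438 RPKM. The knockout sums were far below the wildtype sums and nearly equal to each other. Ucp1 made up most of every sum, so the lower sums largely restate the fall of Ucp1. The mean difference was -2295 RPKM (exact permutation p = 0.1), or -7427 RPKM when all rows of a gene were summed, which counts shared reads more than once. Ucp1 made up 95.7% to 97.5% of the sum in wildtype and 84.7% to 88.2% in knockout libraries. These are shares of RNA, and whether the Ucp1 transcript of the knockout libraries encodes UCP1 was not tested. Ucp3 made up 2.23% to 3.79% in wildtype and 9.22% to 12.6% in knockout, and Ucp2 0.220% to 0.460% and 2.62% to 2.83%.

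Within the groups, the genes did not share an order of libraries. Wildtype replicate 2, the lowest of its group for Ucp1, was also the lowest for Ucp3 and the highest for Ucp2. Knockout replicate 2 was the highest of its group for Ucp1 and the lowest for Ucp3 and Ucp2. With 3 libraries a group, no correlation among the genes was computed.

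Markers of other cell types moved with genotype beside Ucp3 and Ucp2. All 20 skeletal muscle markers were called higher in the knockout libraries, beside 7% of tested genes, with a median log2 change of 3.34. Their summed level was 278, 315 and 65.1 RPKM in wildtype and 2185, 2150.1 and 1911 RPKM in knockout replicates 1, 2 and 3. Between the groups, Ucp3, itself expressed in muscle, was lower where muscle markers were higher. Within the groups the order varied. Knockout replicate 1 had the highest muscle sum and the highest Ucp3 level of its group. Wildtype replicate 2 had the highest muscle sum and the lowest Ucp3 level of its group. Among wildtype libraries, replicate 3 had the least muscle marker RNA and an intermediate Ucp3 level of 72.1 RPKM. The part of muscle RNA in the Ucp3 result was not tested.

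Macrophage markers lay higher in the knockout libraries, as did Ucp2. The 17 macrophage markers measured (Adgre1 was not analysed here) summed to 103, 145 and 122 RPKM in wildtype and 153, 202 and 213 RPKM in knockout replicates 1, 2 and 3. Of 15 tested macrophage markers, 3 rose, beside 7% of all tested genes, 12 did not pass, and the median log2 change was 0.55 beside 0.08 over all tested genes. The 3 were Mpeg1, a pore-forming protein, Cd74, the invariant chain of class II histocompatibility proteins, and Lgals3, a galectin. The number called was 1 after median-of-ratios scaling and 1 without knockout replicate 2 or 3 or wildtype replicate 1 or 3. It was 5 without knockout replicate 1 and 6 without wildtype replicate 2. Ucp2 was 11.6 RPKM in knockout replicate 1 and 8.23 RPKM in wildtype replicate 2, the 2 libraries of opposite genotype with the nearest macrophage sums (153 and 145 RPKM). The part of macrophage RNA in the Ucp2 result was not tested.

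**Figure D4:**
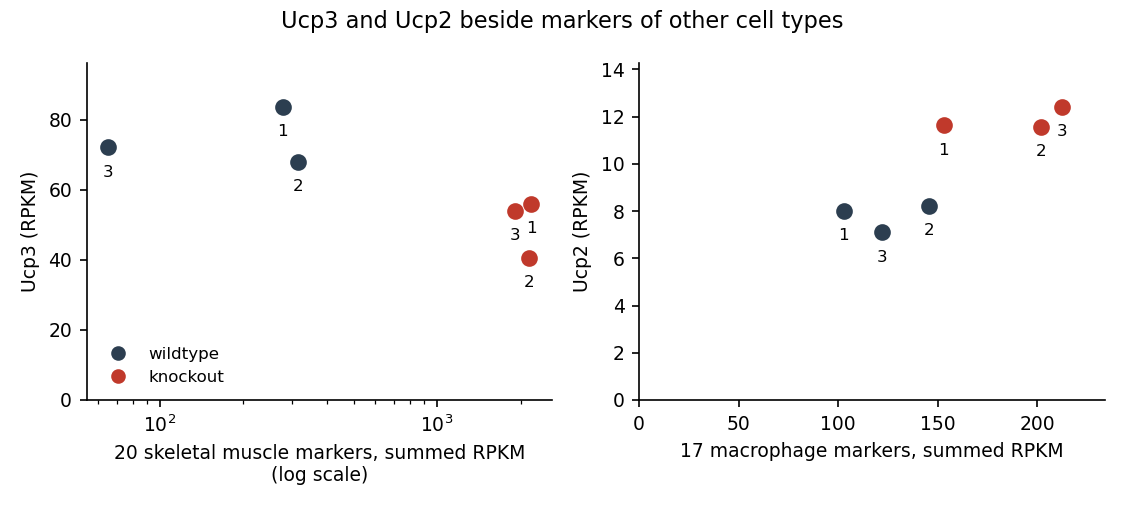
Left, RPKM of Ucp3 against the summed RPKM of 20 skeletal muscle markers (log scale). Right, RPKM of Ucp2 against the summed RPKM of 17 macrophage markers. Each point is a library numbered by replicate. The knockout libraries lie at muscle sums of 1911 to 2185 RPKM with the lowest Ucp3 levels, and at macrophage sums of 153 to 213 RPKM with the highest Ucp2 levels.

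White adipocyte markers were also on average higher in the knockout libraries. All 5 tested ones had a positive log2 change, with a median of 1.05 beside 0.08 over all tested genes. Hoxc8, a position gene, and Agt, which encodes angiotensinogen, rose, so 2 of 5 were called higher, beside 7% of tested genes, and Tcf21 was listed at 0. The list summed to 33.1 to 102 RPKM in wildtype and 98.7 to 167 RPKM in knockout libraries, and the groups overlapped. The number of white adipocyte markers called was 1 without knockout replicate 2 or 3 or wildtype replicate 1 or 3, and 4 without wildtype replicate 2. The part of white adipocyte RNA in the results of the 3 genes was not tested.

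Of 14 lymphocyte markers only Ptprc, the common leukocyte phosphatase, was high enough to test and it did not pass, and the list summed to 2.78 to 3.76 RPKM in wildtype and 4.25 to 8.10 RPKM in knockout. None of 10 endothelial markers passed, beside 7.75% of all tested genes. Their median log2 change was -0.03, beside 0.08 over all tested genes. Among the brown adipocyte markers the fatty acid elongase Elovl3 was called, but not after median-of-ratios scaling or when any 1 of the knockout replicates was left out.

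Mitochondrial carriers related to the uncoupling proteins were examined beside them. Of 8 listed relatives 6 could be tested and none passed limma in either direction, beside 7.75% of all tested genes. Over all tested genes the median log2 change was 0.08, and that of the relatives was 0.07. The smallest p among them was that of Slc25a4, the adenine nucleotide translocator of heart and muscle, with 247 ± 11.4 RPKM in wildtype and 293 ± 10.9 RPKM in knockout (SD over 3 libraries, limma adjusted p = 0.0842). A single relative was called higher without wildtype replicate 2. Slc25a4 stood below Ucp1 in every library. The knockout libraries held 306, 286 and 288 RPKM of Slc25a4 against 375, 389 and 372 RPKM of Ucp1.

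Among 20 regulators of Ucp1 transcription, 1 rose, 1 fell and 18 did not pass, with a median log2 change of 0.08. Of all tested genes, 7% were called higher and 0.745% lower, with a median of 0.08, so the count of higher calls on this list was near the background. Ppara, a fatty acid receptor that acts on Ucp1 and Ucp3, was the one that rose, by a log2 change of 0.57 (limma adjusted p = 0.0300). Prdm16, a cofactor of brown fat identity, fell by 0.49 on the log2 scale (limma adjusted p = 0.0382). No regulator was called higher after median-of-ratios scaling or without knockout replicate 1 or 2 or wildtype replicate 1, and 3 were without wildtype replicate 3. None was called lower without knockout replicate 1 or 2 or wildtype replicate 1 or 3. Ppargc1a, the coactivator of the thermogenic programme, had wildtype and knockout means of 22.8 ± 4.71 and 25.5 ± 3.76 RPKM and did not pass.

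None of 13 genes of adrenergic and lipolytic activation, the signal that turns on UCP1, passed limma, beside 7.75% of all tested genes. Their median log2 change was 0.09, beside 0.08 over all tested genes. Adrb1, a beta adrenergic receptor, came nearest with a wildtype mean of 12.7 ± 1.37 RPKM and a knockout mean of 16.5 ± 0.822 RPKM (limma adjusted p = 0.0538). Dio2, the deiodinase that makes active thyroid hormone, had wildtype and knockout means of 132 ± 19.8 and 164 ± 5.40 RPKM and did not pass. Without wildtype replicate 1, 2 genes of this list were called higher.

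Ucp3 is itself a target gene of the PPAR receptors, and other targets were examined beside it. Of 18 tested, 5 rose, beside 7% of all tested genes, none fell and 13 did not pass, with a median log2 change of 0.16 beside 0.08 over all tested genes. The members with the smallest p were Acot2, a mitochondrial thioesterase, Cyp4b1, a fatty acid hydroxylase family member, and Cpt1a, the carnitine transferase that lets long-chain fatty acids into mitochondria, at log2 changes of 0.93, 0.91 and 0.50. Pdk4, a pyruvate dehydrogenase kinase often induced together with Ucp3, had wildtype and knockout means of 435 ± 52.9 and 417 ± 81.3 RPKM and did not pass. The number called higher was 4 after median-of-ratios scaling and 3 without knockout replicate 2 or wildtype replicate 1. Without wildtype replicate 2, 1 member was called lower.

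Likeness to each member was measured over the 6 libraries as the root mean square difference of log2(RPKM + 1) deviations from the gene's mean, among 6243 genes whose mean reached 5 RPKM. The distance is not scaled by the size of a change, and Ucp1 had the lowest log2 change of all tested genes. Its large distances follow from that change and do not describe its order of libraries. The filter of 5 RPKM also left out Rnf150, whose log2 change was -1.60. Nearest to Ucp1 were H2-Q10 at 0.85, Hsph1, Per2, Ffar4 and Svip at 0.95. Of these, Ffar4, a receptor for long-chain fatty acids, had its wildtype low point in replicate 2 as Ucp1 did, at 26.8 RPKM against 50.9 and 57.0 RPKM. For Ucp2 the distances were smaller: Parp9, Taf15, Ppfibp1, App and Nars lay at 0.059 to 0.061. The genes nearest to Ucp3 were Arrdc3 at 0.085, Coq10b at 0.10, Trib1, Mgp and Gadd45gip1 at 0.14. Arrdc3, an arrestin-domain protein linked to beta adrenergic receptors, held 15.4, 13.0 and 12.3 RPKM in wildtype and 9.18, 7.48 and 8.73 RPKM in knockout replicates 1, 2 and 3, and was lowest in knockout replicate 2 as Ucp3 was. A low distance describes these 6 libraries and largely reflects a group difference of similar size.

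Across the processing alternatives, Ucp1 stayed between -3.04 and -2.60 and Ucp2 between 0.47 and 0.66 on the log2 scale, each past the threshold every time. The alternatives that moved Ucp1 most were those leaving out a wildtype library: its log2 change was -3.04 without wildtype replicate 2 and -2.60 without wildtype replicate 3.

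**Figure D5:**
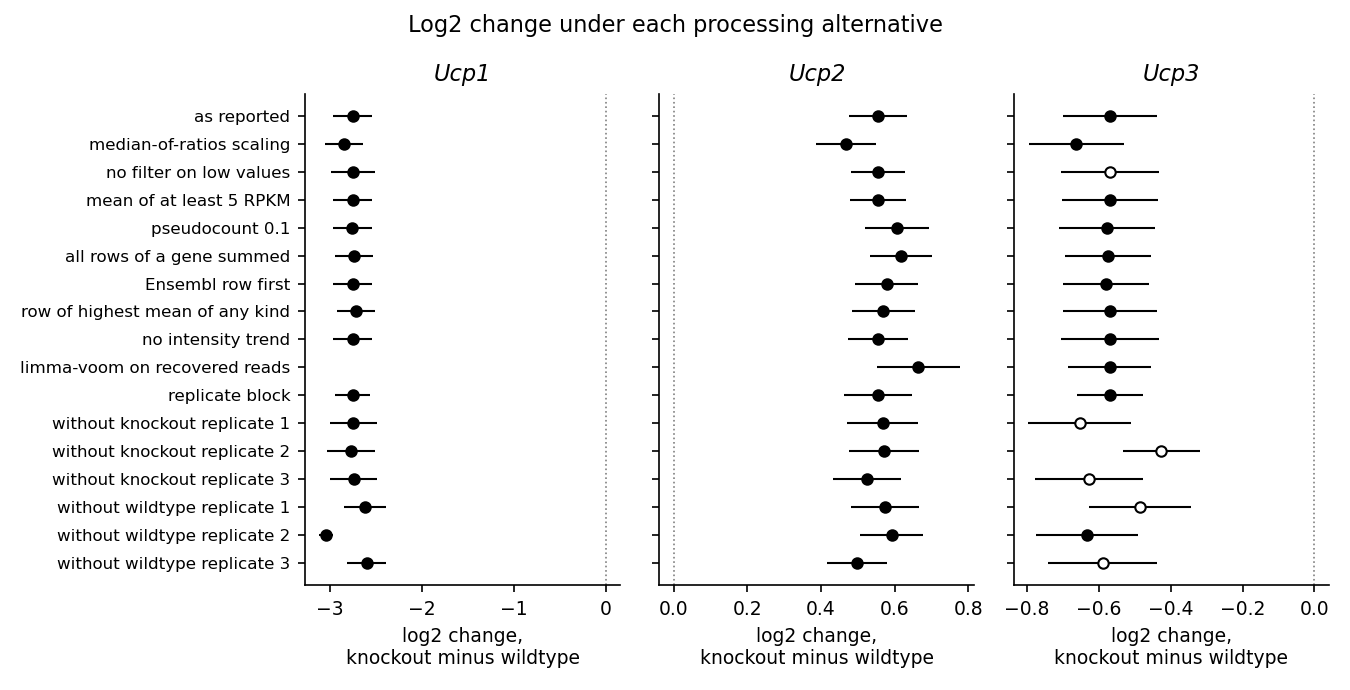
Log2 change (knockout minus wildtype) of Ucp1, Ucp2 and Ucp3 under each processing alternative, with bars of 1 standard error. Filled points passed an adjusted p of 0.05 and open points did not. Ucp1 and Ucp2 are filled in every row where a value could be had, Ucp3 is open in 6 rows, and each gene keeps its direction throughout.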

How the data were processed

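Libraries were made from total RNA of the interscapular depot with the TruSeq RNA Sample Prep kit in its version v2, per the labels' protocols. CASAVA and bcl2fastq are named in the submitters' processing notes, without versions. No aligner, genome build, annotation or use of strand is given in the sources used here. RPKM values of 168326 transcript rows were deposited by the authors, with a column for each of the 6 libraries. No header names the unit, which was worked out from the values: low products of value and transcript length were whole multiples of a step per library in 96.1% to 96.2% of cases, within 0.1 reads. The steps gave the depth of each library and the reads behind the rows of Ucp1, Ucp2 and Ucp3. Errors quoted from reads cover counting error only.

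Rows without a gene identifier (23170, or 13.8%) were left out. A single row was kept per gene: RefSeq first, then Ensembl, then any other, with the highest mean within a kind. Genes whose mean reached 1 RPKM in at least 1 of the groups were tested with limma 3.58.1 in R 4.3.3 on log2(RPKM + 1), with an intensity trend and genotype as the only factor. P-values were two-sided and adjusted after Benjamini and Hochberg over the whole set of tested genes, and 0.05 was the threshold. Fold changes on this scale understate the change of low genes. The script was tested on simulated data. Ratios and sums were compared by exact two-sided permutation tests. No library duplicated another: wildtype replicates 2 and 3 shared the exact value of 2 genes above 0, and no other pair of libraries shared any.

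The members and the gene lists were chosen with earlier results of these data known, so they are described by counts and medians with no test of a list. Besides the members, the genes named are up to 3 called genes per list with the smallest adjusted p, or the 1 with the smallest p where none passed, the 5 genes most like each member (predicted genes, clones and pseudogenes left out) and the 2 nearest tested genes on each side of the Ucp2 and Ucp3 pair. Tcf21, Ppargc1a, Dio2, Pdk4, Fabp4 and Rnf150 were named outside this rule after their values were seen. Alternatives changed the scaling, filter, pseudocount, rows used, trend, replicates and model. Using the row of highest mean of any kind was an alternative chosen after seeing the data. Gene positions come from GENCODE M21, gene order and promoter sequences from RefSeq tables (GRCm38.p6). All 3 members matched by symbol.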

Additional observations from a re-analysis of the deposited data

How the results depend on the processing

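The log2 changes of Ucp1 and Ucp2 kept their direction and side of the threshold in all alternatives run, 15 for Ucp1 and 16 for Ucp2. Ucp1 has no Ensembl row, so limma-voom gave no value for it. Ucp3 fell below the threshold without a filter on low values (log2 change -0.57, adjusted p = 0.0776) and in 5 of 6 fits without a replicate, where it ranged from -0.65 to -0.43. The number of genes called was 452 with a mean of at least 5 RPKM, 519 with limma-voom on recovered reads, and 457 to 850 without a replicate, against 894. Both of the first 2 tested fewer genes, 6945 and 7953, against 11541. The cause was not tested for any of these counts. Summing all rows gave a family difference of -7427 RPKM in place of -2295 RPKM because rows share reads. No result reversed.

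Libraries share replicate numbers, but the deviations of same-numbered libraries correlated at only 0.09, 0.04 and -0.02, so the numbers were not taken as pairing. With the replicate number as a block, limma called 778 genes, and the adjusted p was 0.000462 for Ucp1, 0.0155 for Ucp2 and 0.0141 for Ucp3. Of the 3 genes, Ucp2 has the fewest reads, with a counting error of 3.29% to 4.58%. With 3 libraries a group, exact tests of ratios could not go below p = 0.1.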
